A study of Mus musculus with 8 samples.

Results

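The 10 endothelial and angiogenic genes described here are Vegfa, Kdr, Flt1, Pecam1, Vwf, Cdh5, Tek, Angpt1, Angpt2 and Hif1a. They are a list of symbols with no threshold on their values, drawn up with earlier results of these data known, and each was found once among the 27036 genes of the count table. All 10 passed the filter on low counts, as did 14034 genes of the table. The table holds bulk RNA-seq counts from 8 mouse prostate libraries, 3 from wild type (WT) prostates, 3 from prostates with prostatic intraepithelial neoplasia (PIN), a lesion of atypical cells inside the gland, and 2 from prostate adenocarcinoma (PCa). WT mice were R26mTmG/+:Osr1Cre/+, and the PIN and PCa tissues came from R26mTmG/hAR:Osr1Cre/+ mice, on a mixed background of C57BL/6 and 129S1/SvImJ. The floxed human androgen receptor transgene (hAR) and the mTmG fluorescent reporter sit at the Rosa26 locus and are switched on by Cre from the Osr1 promoter, so the controls carried Cre and the reporter too. Cre from this promoter acts in a lineage of prostate progenitor cells and not in every cell of the gland. The study selected PIN and PCa tissues under the microscope for a large majority of atypical or tumor cells, while WT was prostate tissue. How this choice of tissue bears on the values was not tested. By the study's account the WT mice were matched to the others in age and sex, while the ages behind each library are not given in the sources used here. PIN precedes PCa in this model, so between PIN and PCa age and lesion cannot be told apart. The comparisons ask how the RNA of vessels and of the signals that act on them differed between normal gland, early lesion and tumor.

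Blood vessels are lined by endothelial cells, and new ones sprout when tissue calls for oxygen. VEGF-A, made by epithelium, stroma and immune cells, is the main signal for sprouting and acts on 2 receptor tyrosine kinases of endothelial cells, KDR (VEGFR2), which carries most of the signal, and FLT1 (VEGFR1), which binds the ligand tightly and also acts as a trap. A second system tunes vessel stability. Angiopoietin-1, made largely by cells around the vessel, activates the receptor TEK (TIE2) and stabilizes vessels, while angiopoietin-2 can oppose it. HIF-1α, the oxygen-sensitive subunit of a transcription factor that drives Vegfa in hypoxia, is controlled mainly through protein stability.

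The promoters of Kdr, Flt1, Tek and Vegfa are shown because the first 3 encode the receptors of both ligand systems and Vegfa was the member that passed the test. RefSeq promoters (GRCm38.p6) were held for 5 of the 10 members, and the 250 bases before each start matched the mm9 genome exactly at 1 place. The windows lie at chr5:76374481-76374730 on the minus strand for Kdr, chr5:148537588-148537837 on the minus strand for Flt1, chr4:94405730-94405979 on the plus strand for Tek and chr17:46169327-46169576 on the minus strand for Vegfa, all in mm9, written 5′ to 3′. Capitals mark the HIF core, ACGTG or GCGTG on either strand, and the ETS core AGGAAG on either strand, where ETS names a family of factors active in endothelial cells.
Kdr: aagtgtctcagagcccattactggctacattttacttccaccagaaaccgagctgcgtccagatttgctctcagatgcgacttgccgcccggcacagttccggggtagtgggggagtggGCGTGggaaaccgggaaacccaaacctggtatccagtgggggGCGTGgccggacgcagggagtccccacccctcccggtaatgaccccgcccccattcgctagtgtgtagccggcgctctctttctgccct
Flt1: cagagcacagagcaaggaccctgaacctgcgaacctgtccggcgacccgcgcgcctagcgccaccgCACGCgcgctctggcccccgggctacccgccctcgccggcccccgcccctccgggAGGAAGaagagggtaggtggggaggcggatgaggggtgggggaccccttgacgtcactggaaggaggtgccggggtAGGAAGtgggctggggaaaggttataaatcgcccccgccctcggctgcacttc
Tek: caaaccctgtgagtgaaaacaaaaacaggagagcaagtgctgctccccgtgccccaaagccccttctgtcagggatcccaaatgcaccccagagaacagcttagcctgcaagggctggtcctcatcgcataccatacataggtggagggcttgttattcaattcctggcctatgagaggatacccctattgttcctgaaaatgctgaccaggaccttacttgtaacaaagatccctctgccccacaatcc
Vegfa: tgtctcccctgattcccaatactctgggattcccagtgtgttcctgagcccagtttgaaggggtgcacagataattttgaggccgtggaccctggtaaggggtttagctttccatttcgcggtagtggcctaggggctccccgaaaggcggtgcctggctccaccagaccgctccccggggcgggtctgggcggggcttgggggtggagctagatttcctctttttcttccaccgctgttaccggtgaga
The Kdr window held 2 HIF cores and no ETS core. The Flt1 window held 1 HIF core and 2 ETS cores. Neither motif was found in the windows shown for Tek and Vegfa. A second RefSeq start of Vegfa lies inside the gene, and its window at chr17:46162113-46162362 (mm9, minus strand) is not shown. That window, part of the gene body, held 2 HIF cores and no ETS core. The window of Hif1a, also not shown, held 3 HIF core matches, counting a CACGTG on both strands, and no ETS core. Across 32851 RefSeq promoter windows of this length, 38.6% held a HIF core and 29.5% an ETS core, so both are common letters and a match is a description only.

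The libraries held 21751803 to 29730420 counts on genes. Values are given as CPM, counts brought to 1 library size with the trimmed mean of M-values, and levels of different genes are compared only per kilobase of exon. The labels number the libraries as replicates and do not name the animals, so each library was taken as a separate animal. The library numbers in the labels fall into 3 series, with WT 1 alone, WT 2 and WT 3 together, and all PIN and PCa libraries together. Should a series be a batch, its effect and that of the condition cannot be told apart wherever WT is compared. The prostate luminal marker Pbsn was high in all WT and PIN libraries, from 6552 to 23968 CPM, and was at 8.53 and 60.8 CPM in PCa 1 and PCa 2.

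WT 2 stood apart from the other WT libraries in its vessel genes. All 6 members that mark endothelial cells, Pecam1, Cdh5, Vwf, Kdr, Flt1 and Tek, were lowest of the WT libraries in WT 2, from 3.31-fold below the mean of WT 1 and WT 3 for Tek to 7.53-fold below for Vwf. Of 21 further endothelial markers that passed the filter, 18 were also lowest in WT 2, against 43.4% of all tested genes. Luminal markers went the other way, with a median ratio of WT 2 to the mean of WT 1 and WT 3 of 2.66. Median ratios were 0.204 for mural, 0.320 for red cell, 0.423 for smooth muscle, 0.444 for fibroblast and 0.474 for leukocyte markers. Platelet and lymphatic markers were at 0.966 and 0.898. Low values in WT 2 were thus not particular to endothelial genes. The keratin gene Krt8 stood at 975 CPM in WT 2, beside 198 and 209 CPM in the other WT libraries. In bulk tissue, fewer endothelial cells and less RNA of these genes per cell cannot be told apart. Values without WT 2 are therefore given for each member's comparisons with WT.

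**Figure D1:**
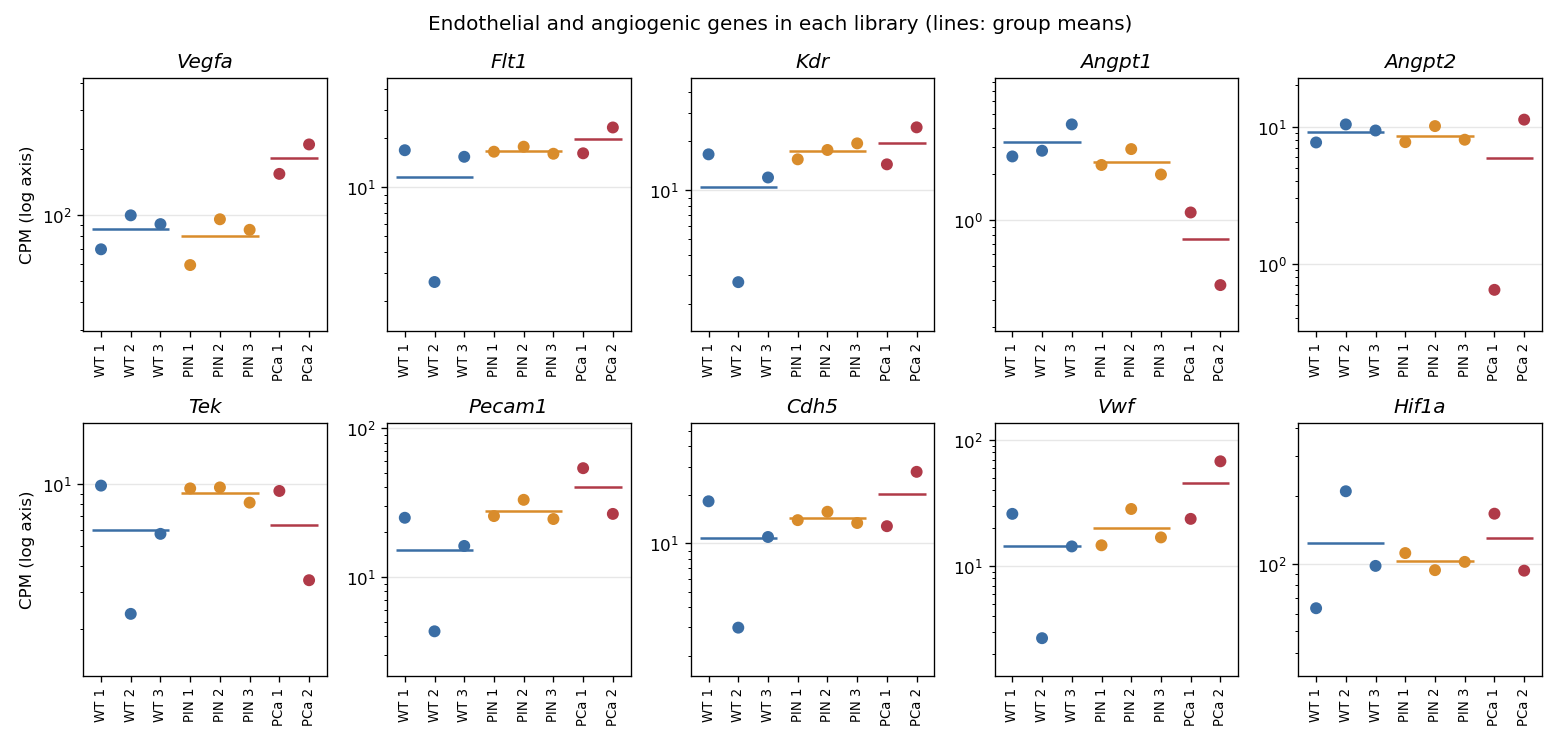
CPM of each of the 10 genes (vertical log axis) in the 8 libraries, with points for libraries and lines for group means. Vegfa was above every WT and PIN library in both PCa libraries, and Kdr, Flt1, Tek, Pecam1, Cdh5 and Vwf were lowest in WT 2.

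No member was called between PIN and WT, where a call needed a log2 fold change beyond 1 in either direction and a Benjamini-Hochberg adjusted p under 0.05 from edgeR's quasi-likelihood test. That rule called 0% of all 14034 genes, or 0 genes. An unadjusted p under 0.05 was found for 492 genes (3.51%) and for no member, and DESeq2 called 39 genes and no member. No member's PIN and WT values were free of overlap, where 6.48% of all genes were higher and 6.38% lower in every PIN library. Between PCa and WT the rule again called no member, against 8.54% of all genes (4.35% higher and 4.18% lower), and 2 members, Vegfa and Angpt1, had an unadjusted p under 0.05, as did 27.5% of all genes. Between PCa and PIN it called 1 of 10 members, Vegfa, against 5.72% of all genes (2.55% higher and 3.17% lower), and the unadjusted p was under 0.05 for the same 2 members and for 22.8% of all genes. The median log2 fold change of the members was 0.45 from WT to PIN, 0.83 from WT to PCa and 0.29 from PIN to PCa, where the medians of all tested genes were -0.02, 0.01 and 0.07. Without WT 2 the members' medians were 0.04, 0.46 and 0.29. A share of 1 in 10 members is close to the background, and these counts set the members apart from other genes in no comparison.

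Vegfa, the gene of the sprouting signal itself (mm9 chr17:46153942-46169326, minus strand), was the member with the clearest difference. It stood at 69.9, 99.8 and 91.0 CPM in WT 1, 2 and 3, at 59.2, 95.7 and 85.7 CPM in PIN 1, 2 and 3, and at 154 and 210.0 CPM in PCa 1 and PCa 2. Both tumors lay above all 6 other libraries, and PIN and WT overlapped. Vegfa rose in PCa against PIN, from 80.2 ± 18.9 CPM (SD, n = 3) to 182 ± 39.5 CPM (SD, n = 2), with a log2 fold change of 1.18 ± 0.27 (SE) and an adjusted p of 0.0497 from edgeR's quasi-likelihood test. Against WT the log2 fold change was 1.07 ± 0.27 with an adjusted p of 0.0530, which missed the threshold, and in PIN against WT it was -0.12 ± 0.25 with an adjusted p of 1. Without WT 2 these were 1.18 ± 0.30 with an adjusted p of 0.0653 and -0.0038 ± 0.27. Groups without overlap were common, with 21.1% of all genes higher in both PCa libraries than in every PIN library and 17.7% higher than in every WT library. The call against PIN lay at the threshold. Fits without PCa 1 or PCa 2 hold a single tumor, and no call is read from them. In edgeR's quasi-likelihood test the call was lost without WT 1 (adjusted p 0.0613), WT 3 (0.0941), PIN 1 (0.130), PIN 2 (0.109) or PIN 3 (0.166). It stayed without WT 2 (0.0488). It was also lost with no low count filter (0.0735), with filterByExpr (0.0572), with only the 2 groups compared (0.0869) and with the replicate block (0.0634). Over the fits without 1 library the log2 fold change itself stayed between 0.96 and 1.40. Against WT the log2 fold change was 1.28 without PCa 1, a value that rests on PCa 2 alone.

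Other ligands of the family did not follow Vegfa. Vegfb, whose product binds FLT1 and not KDR, fell in both comparisons with PCa. It stood at 40.5, 32.5 and 33.0 CPM in WT, at 22.5, 23.7 and 25.2 CPM in PIN and at 11.8 and 6.41 CPM in PCa. The 3 groups did not overlap, and edgeR's quasi-likelihood test gave a log2 fold change of -1.95 ± 0.31 from WT to PCa with an adjusted p of 0.0135 and of -1.38 ± 0.30 from PIN to PCa with an adjusted p of 0.0433, and both calls held without WT 2. In PIN against WT its log2 fold change of -0.57 ± 0.26 had an adjusted p of 1. Vegfc, the main ligand of the lymphatic receptor FLT4, was at 1.09 and 0.686 CPM in PCa and between 1.495 and 4.39 CPM in the other 6 libraries. Its log2 fold change of -2.07 in PCa against PIN had an adjusted p of 0.0742 with all libraries and 0.0456 without WT 2, also from edgeR's quasi-likelihood test. Vegfd (Figf in the table), the other lymphatic ligand, was split between tumors, at 11.2 CPM in PCa 1 and 0.171 CPM in PCa 2. Pgf, a ligand of FLT1, was low throughout, between 0.317 and 1.47 CPM.

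Kdr, the main signalling receptor (mm9 chr5:76328852-76374483, minus strand), did not pass the test in any comparison. Its values were 16.6, 2.72 and 11.97 CPM in WT, 15.5, 17.7 and 19.4 CPM in PIN, and 14.4 and 24.3 CPM in PCa. Apart from WT 2, the range over the other libraries was 11.97 to 24.3 CPM, and PCa overlapped PIN. The log2 fold changes were 0.75 ± 0.58 from WT to PIN, 0.89 ± 0.63 from WT to PCa and 0.15 ± 0.64 from PIN to PCa. The first and second were 0.29 ± 0.30 and 0.44 ± 0.33 without WT 2 and 1.25 and 1.398 without WT 1. Without PCa 2 the second was 0.48 and the last -0.26.

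Flt1, the receptor that also acts as a trap (mm9 chr5:148373180-148537587, minus strand), followed Kdr closely. It was at 16.9, 2.63 and 15.4 CPM in WT, at 16.6, 17.8 and 16.1 CPM in PIN and at 16.2 and 23.3 CPM in PCa. The PIN libraries spanned less than 2 CPM and WT 1, WT 3 and PCa 1 lay at a like level, so that WT 2 was the low value and PCa 2 the high one. The log2 fold changes were 0.53 ± 0.59 from WT to PIN, 0.76 ± 0.65 from WT to PCa and 0.23 ± 0.65 from PIN to PCa, and without WT 2 the first fell to 0.06 ± 0.23 and the second to 0.29 ± 0.25. Without WT 1 the first was 0.896, and without PCa 2 the second was 0.49 and the last -0.0326. Among the other receptors, the co-receptor genes Nrp1 and Nrp2 were at 30.3, 4.21 and 19.9 CPM and at 39.7, 7.205 and 28.9 CPM in WT. Nrp1 was at 40.5 and 20.5 CPM in PCa and Nrp2 at 11.5 and 5.21 CPM. Nrp2 in PCa against WT was not called with all libraries (-1.60, adjusted p 0.182) and was called without WT 2 (-2.04, adjusted p 0.0436) by edgeR's quasi-likelihood test. Flt4, the lymphatic VEGF receptor, was between 3.35 and 8.25 CPM in all 8 libraries and overlapped between all groups.

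Angpt1, the gene of the stabilizing ligand (mm9 chr15:42256273-42508523, minus strand), was the lowest of the 10 per kilobase in each group and lower still in tumors. It stood at 2.62, 2.85 and 4.25 CPM in WT, at 2.30, 2.93 and 2.00 CPM in PIN and at 1.13 and 0.377 CPM in PCa, the last from 35 and 11 counts. Both PCa libraries lay below the other 6, as they did for 19.6% of all genes against WT and 23.2% against PIN. The log2 fold change was -2.10 ± 0.61 in PCa against WT with an adjusted p of 0.0741 and -1.67 ± 0.60 in PCa against PIN with an adjusted p of 0.153, and neither passed edgeR's quasi-likelihood test. From WT to PIN it was -0.43 ± 0.50, and without WT 2 it was -0.51 ± 0.56 from WT to PIN and -2.18 ± 0.65 from WT to PCa with an adjusted p of 0.0955. Without PCa 1, on PCa 2 alone, the log2 fold changes were -3.08 against WT and -2.65 against PIN. Without PCa 2, on PCa 1 alone, they were -1.51 and -1.07. With all libraries DESeq2 called both comparisons, with adjusted p of 0.00578 and 0.0435.

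Angpt2, the gene of the destabilizing ligand (mm9 chr8:18690263-18741562, minus strand), separated the 2 tumors from each other. It was at 7.66, 10.4 and 9.37 CPM in WT and at 7.70, 10.1 and 8.02 CPM in PIN, a narrow range. PCa 2, at 11.2 CPM, was just above that range, while PCa 1 was at 0.644 CPM, from 20 counts against 155 or more in every other library. The group comparison therefore has a wide error, with a log2 fold change of -0.62 ± 0.90 from WT to PCa and of -0.53 ± 0.90 from PIN to PCa. The first was -0.52 ± 1.06 without WT 2, and from WT to PIN the log2 fold change was -0.09 ± 0.79 with all libraries and 0.0148 ± 0.96 without WT 2. Without PCa 2, on PCa 1 alone, the log2 fold changes were -3.80 from WT and -3.71 from PIN. Without PCa 1, on PCa 2 alone, they were 0.31 and 0.40. Angpt2 lies within Mcph1 on the opposite strand, and the strand setting of the counting is not given in the sources used here, so reads of this pair of genes may not be separated.

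Tek, the angiopoietin receptor (mm9 chr4:94405980-94541667, plus strand), was at 9.84, 2.36 and 5.75 CPM in WT, at 9.54, 9.64 and 8.14 CPM in PIN and at 9.27 and 3.43 CPM in PCa. PCa 1 lay within the PIN range and PCa 2 below it, so Tek was low in the tumor where Kdr, Cdh5 and Vwf were highest. The log2 fold changes were 0.61 ± 0.57 from WT to PIN, 0.09 ± 0.63 from WT to PCa and -0.52 ± 0.64 from PIN to PCa, none of which passed. The first was 0.23 ± 0.48 without WT 2 and 1.17 without WT 1. The second changed sign without WT 2, to -0.29 ± 0.53, and without PCa 1, to -0.79. Tie1, the partner receptor of TEK, was between 3.51 and 8.998 CPM outside WT 2, where it was 1.495 CPM. Ptprb, an endothelial phosphatase that restrains TEK, was between 27.9 and 38.3 CPM outside WT 2, where it was 5.21 CPM. Angpt4, another ligand, was at 0.933 and 0.0686 CPM in PCa and at 1.93 to 2.30 CPM in PIN, without a call (-2.08 ± 1.18).

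Pecam1, an adhesion molecule at endothelial cell contacts that platelets and leukocytes also carry (mm9 chr11:106515531-106611942, minus strand), was at 25.0, 4.30 and 16.1 CPM in WT, at 25.6, 33.0 and 24.5 CPM in PIN and at 53.8 and 26.5 CPM in PCa. PCa 1 was the highest library, and PCa 2 lay within the PIN range and just above WT 1. The log2 fold change of 1.41 ± 0.63 in PCa against WT had an adjusted p of 0.197 from edgeR's quasi-likelihood test, and without WT 2 it was 0.97 ± 0.40 with an adjusted p of 0.179, and without PCa 1 it was 0.82. In PIN against WT it was 0.87 ± 0.58 with WT 2 and 0.43 ± 0.37 without, and 1.44 without WT 1. In PCa against PIN it was 0.54 ± 0.63 with all libraries and -0.05 without PCa 1. Of the leukocyte markers, the pan-leukocyte gene Ptprc was also highest in PCa 1, at 45.5 CPM against 5.01 CPM in PCa 2, and its part in the Pecam1 value was not tested.

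Cdh5, which encodes VE-cadherin of endothelial junctions (mm9 chr8:106625525-106668402, plus strand), was at 18.2, 2.99 and 10.9 CPM in WT, at 13.9, 15.7 and 13.4 CPM in PIN and at 12.8 and 27.8 CPM in PCa. PCa 1 was just below the PIN range and PCa 2 was the highest library, the reverse of the order for Pecam1. The log2 fold changes of 0.42 ± 0.59 from WT to PIN, 0.92 ± 0.65 from WT to PCa and 0.50 ± 0.66 from PIN to PCa did not pass, and without WT 2 the first was -0.02 ± 0.39 and the second 0.48 ± 0.43. Without WT 1 they were 1.04 and 1.54, and without PCa 2 the second was 0.27 and the last -0.14.

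Vwf, the gene of the clotting factor stored in endothelial cells and platelets (mm9 chr6:125496792-125636697, plus strand), was at 26.0, 2.67 and 14.3 CPM in WT, at 14.6, 28.4 and 16.9 CPM in PIN and at 23.7 and 67.9 CPM in PCa. PCa 2 was more than 2-fold above every other library, and PCa 1 lay within the PIN range. The log2 fold changes were 0.48 ± 0.75 from WT to PIN, 1.68 ± 0.82 from WT to PCa and 1.20 ± 0.82 from PIN to PCa. The first fell to -0.01 ± 0.54 without WT 2 and was 1.23 without WT 1, and the second fell to 1.19 ± 0.60 without WT 2, while without PCa 2 the second was 0.74 and the last 0.27. The platelet and megakaryocyte gene Itga2b was higher in PCa 1 (8.56 CPM) than in PCa 2 (4.01 CPM) and passed against WT (2.79 ± 0.64, adjusted p 0.0382) and PIN (2.72 ± 0.63, adjusted p 0.0499) in edgeR's quasi-likelihood test, calls that were lost without WT 2 (adjusted p 0.0807 and 0.0554). Pf4, the other platelet gene that passed the filter, was at 4.38 and 0.171 CPM in PCa 1 and PCa 2, and Ppbp, Gp1ba, Gp9 and Gp5 did not pass it.

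**Figure D2:**
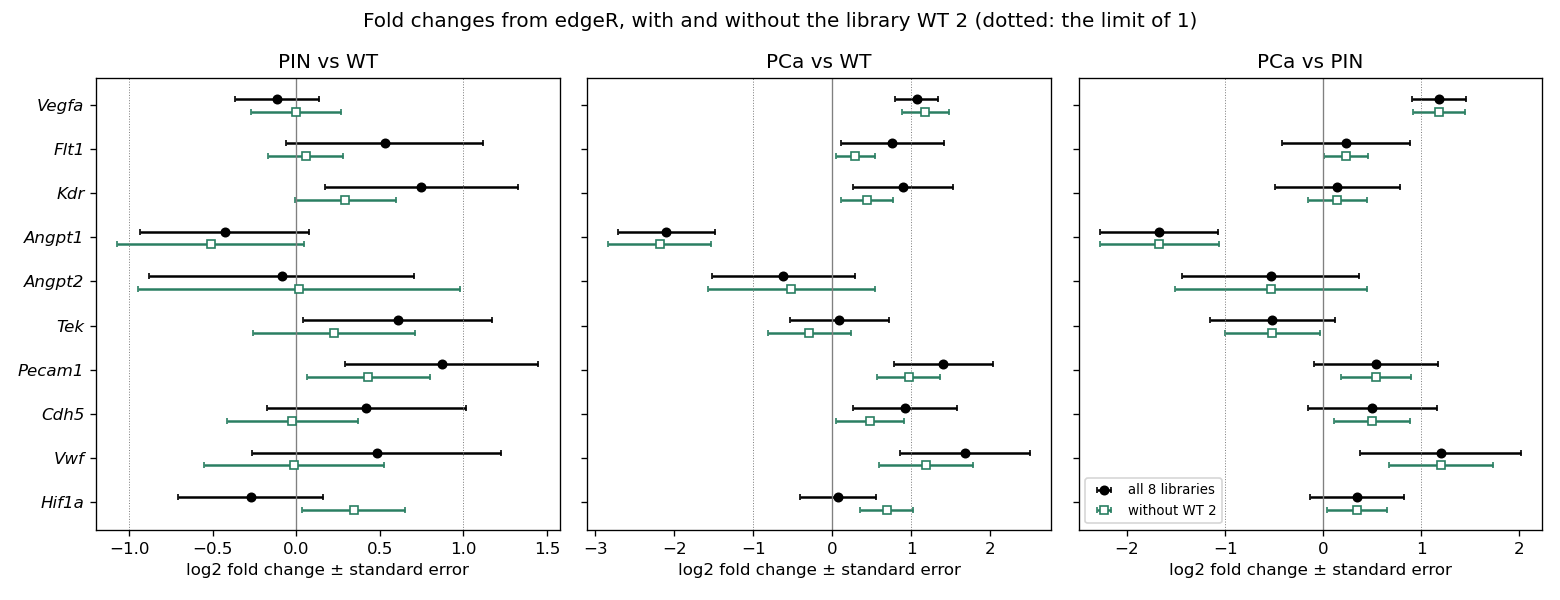
Log2 fold change with its standard error (horizontal axis) for each of the 10 genes in the 3 comparisons, for all 8 libraries (filled circles) and without WT 2 (open squares), with dotted lines at a log2 fold change of 1 in either direction. The positive values of Kdr, Flt1, Cdh5 and Vwf in PIN against WT lie nearer to 0 without WT 2, and Vegfa in PCa against PIN is at 1.18 in both fits.

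Among the wider endothelial markers 1 gene was called. Of 22 further endothelial markers, 21 passed the filter, and the summed level of the list was 107 to 202 CPM in WT, 138 to 161 CPM in PIN and 136 CPM in both PCa libraries. The median log2 fold change was 0.17 from WT to PIN, 0.16 from WT to PCa and 0.15 from PIN to PCa, beside -0.02, 0.01 and 0.07 for all tested genes. Without WT 2 the first and second medians were -0.25 and 0.07, beside 0.01 and 0.07 for all genes, so the first changed sign. One of the 21 was called in PCa against WT, Emcn, which encodes the sialomucin endomucin of capillaries and veins, where 8.54% of all genes were called and 4.18% were called lower, so 1 of 21 is near the background. Its log2 fold change was -1.85 ± 0.42 (adjusted p 0.0371, edgeR's quasi-likelihood test), and it fell from 21.7, 54.2 and 34.3 CPM in WT to 9.20 and 11.1 CPM in PCa. WT 2 was the highest library for Emcn, against the direction of most endothelial genes there, and without it the adjusted p was 0.0508. None was called in PCa against PIN, where the extremes were Aplnr at 1.02 and Emcn at -1.32. The lymphatic markers Prox1, Lyve1, Pdpn and Flt4 had no call, with medians of -1.16 in both comparisons with PCa and with Flt4 and Lyve1 as extremes, at -0.29 and -1.38 from WT and -0.504 and -1.57 from PIN. Lyve1 and Pdpn were at 10.97 and 15.4 CPM in PCa 1 and at 0.103 and 0.309 CPM in PCa 2, so these genes were near 0 in the tumor with the higher Kdr and Vwf.

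Some genes of sprouting tip cells were called higher in tumors. Of 6 listed genes, 5 passed the filter and 3 were called higher in PCa against WT, Esm1, Unc5b and Cxcr4, and 2, Unc5b and Cxcr4, in PCa against PIN, beside 4.35% and 2.55% of all genes called higher. Without WT 2 the counts were 1 of 5 and 2 of 5, where 7.30% and 7.81% of all genes were called in either direction. No other library was left out for this list. The median log2 fold change of the 5 was 2.21 from WT to PCa, or 1.904 without WT 2, and 2.41 from PIN to PCa. Unc5b, a netrin receptor found on tip cells and on many epithelia, stood at 67.6, 23.8 and 46.0 CPM in WT, at 45.2, 32.4 and 42.3 CPM in PIN and at 131 and 294 CPM in PCa. It rose by a log2 fold change of 2.21 ± 0.48 against WT (adjusted p 0.0320) and 2.41 ± 0.48 against PIN (adjusted p 0.0334) in edgeR's quasi-likelihood test, and both calls held without WT 2 (adjusted p 0.0499 and 0.0221). Cxcr4, a chemokine receptor of tip cells, leukocytes and tumor cells, was between 0.453 and 1.76 CPM in WT and PIN and at 14.8 and 5.93 CPM in PCa. Its log2 fold change was 3.72 ± 0.75 against WT (adjusted p 0.0270) and 3.28 ± 0.73 against PIN (adjusted p 0.0455), and without WT 2 the first had an adjusted p of 0.0610. Esm1, a proteoglycan of tip cells, rested on PCa 2, at 21.4 CPM against 1.77 CPM in PCa 1 and 0.136 to 1.21 CPM elsewhere, and its call against WT (4.55 ± 1.09, adjusted p 0.0434, edgeR's quasi-likelihood test) was lost without WT 2 (adjusted p 0.0896). Apln, the ligand apelin, failed the filter since it passed 1 CPM in PCa 2 only, at 16.5 CPM. Dll4, the Notch ligand of tip cells, was at 4.15 and 4.22 CPM in PCa, above all other libraries, and did not pass (1.43 ± 0.87 against WT, and 0.91 ± 0.46 without WT 2). Pdgfb, a ligand that recruits pericytes, was at 10.1 and 3.15 CPM in PCa, 0.544 to 3.86 CPM in WT and 2.22 to 3.27 CPM in PIN, so PCa 2 lay within the ranges of the other libraries. Its log2 fold changes of 1.69 ± 0.80 from WT and 1.24 ± 0.79 from PIN did not pass, and the first was 1.24 ± 0.68 without WT 2.

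Angiogenesis inhibitors were divided. One of 8 was called in each comparison with PCa, and it was not the same gene. Over all genes 8.54% were called against WT and 5.72% against PIN, so 1 of 8 is near the background. Adamts1, a protease that can bind VEGF, rose against WT by a log2 fold change of 2.67 ± 0.62 (adjusted p 0.0407, edgeR's quasi-likelihood test), with 12.1 to 13.8 CPM in the 6 WT and PIN libraries, 21.5 CPM in PCa 1 and 138 CPM in PCa 2, and the call was lost without WT 2 (adjusted p 0.0929). Timp3, a metalloprotease inhibitor that blocks KDR, fell against PIN with a log2 fold change of -2.004 ± 0.40 (adjusted p 0.0334, edgeR's quasi-likelihood test), from 244 to 264 CPM in PIN to 70.5 and 55.0 CPM in PCa. Against WT, Timp3 was at -1.41 ± 0.39 with an adjusted p of 0.0627, and without WT 2 at -1.71 with an adjusted p of 0.0162 in edgeR's quasi-likelihood test. The medians of the 8 genes were -0.31 against WT, or -0.21 without WT 2, and -0.11 against PIN.

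**Figure D3:**
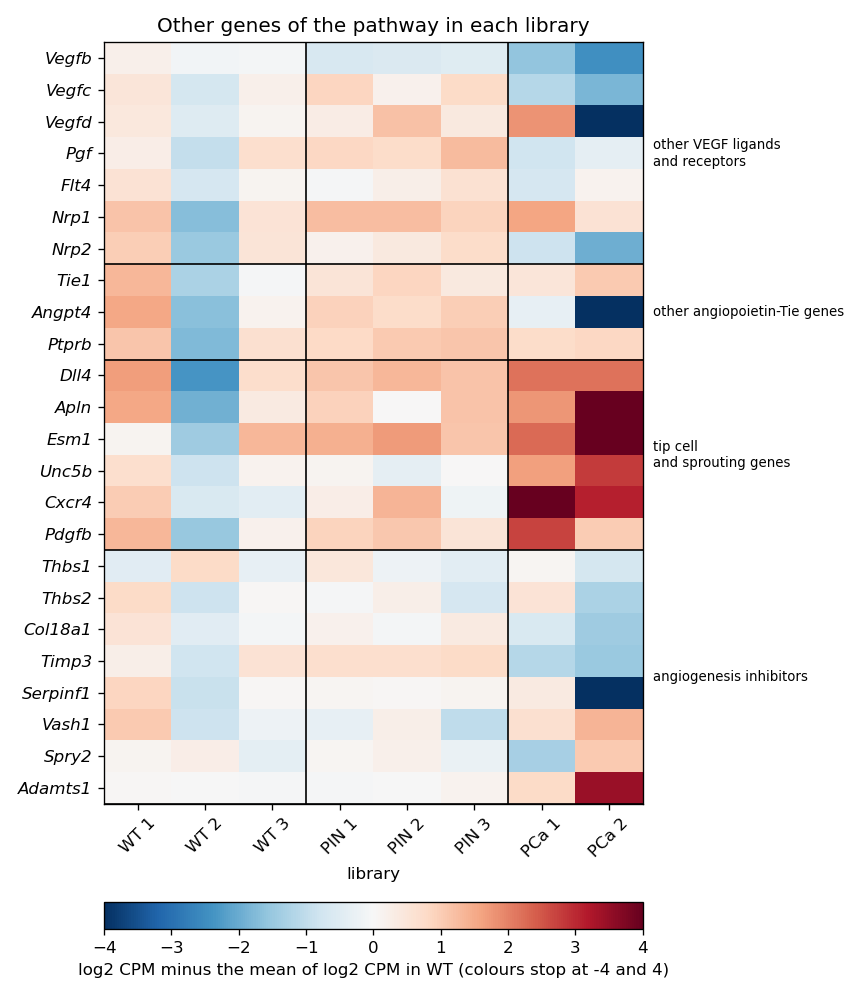
Log2 CPM minus the mean log2 CPM of the 3 WT libraries (colour, stopping at -4 and 4) for 24 further genes of VEGF, angiopoietin-Tie, sprouting and inhibitor lists (rows) in the 8 libraries (columns). Most rows are below the WT mean in WT 2, Vegfb and Timp3 are low in both PCa libraries, and Unc5b and Cxcr4 are high in both.

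Hif1a (mm9 chr12:75002362-75048517, plus strand) was with Vegfa the most abundant of the 10 genes per kilobase, at a mean of 20.9 CPM per kilobase of exon in WT against 20.2 for Vegfa and 0.761 to 3.51 for the other 8. Its levels were 63.4, 209 and 97.7 CPM in WT, 111, 93.5 and 102 CPM in PIN and 166 and 93.0 CPM in PCa. WT 2 was the highest of all libraries and WT 1 the lowest, so that WT alone spanned the whole range. The log2 fold changes were -0.27 ± 0.43 from WT to PIN, 0.07 ± 0.48 from WT to PCa and 0.34 ± 0.48 from PIN to PCa. Without WT 2 the first and second were 0.34 ± 0.31 and 0.69 ± 0.33, and without PCa 1 the second and last were -0.40 and -0.12, so none has a stable direction.

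The HIF lists had no call with all libraries, where 8.54% of all genes were called against WT and 5.72% against PIN, so that a count of 0 in lists of this size says little about them. Of 9 genes for HIF subunits and oxygen sensors, 0 were called between PCa and WT and 0 between PCa and PIN, with medians of -0.04 and -0.07, the first being 0.0028 without WT 2. The extremes against WT were Arnt2 at 1.92 and Egln1 at -0.45, and against PIN Egln3 at 1.39 and Epas1 at -1.04. Epas1 encodes HIF-2α, the form prominent in endothelium, and was at 42.2 and 25.1 CPM in PCa and 59.6 to 75.6 CPM in PIN. Egln3, an oxygen sensor that HIF itself induces, was at 11.1 CPM in PCa 1 and 3.87 CPM in PCa 2, both above the 2.36 to 3.10 CPM of the other libraries, without passing the test (adjusted p 0.110 against WT and 0.140 against PIN, edgeR's quasi-likelihood test). Of 15 HIF target genes, 14 passed the filter and 0 were called in either comparison with all libraries, with medians of 0.26 and 0.54, the first being 0.42 without WT 2. The largest value was that of the glycolytic gene Hk2 in both, at 2.82 ± 0.99 against WT and 2.72 ± 0.98 against PIN, and the smallest that of Pfkfb4, at -1.43 and -1.47. Without WT 2, the HIF-induced gene Ankrd37 was called against PIN, at 2.60 with an adjusted p of 0.04999 in edgeR's quasi-likelihood test, just inside the threshold. It stood at 3.51 and 9.87 CPM in PCa and between 0.678 and 2.18 CPM in WT and PIN.

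Of the markers of cells around vessels and of the stroma, those of smooth muscle were called lower in tumors. Among 8 mural cell markers only Des, which smooth muscle shares, was called, at -6.65 ± 0.95 against WT and -6.75 ± 0.96 against PIN (adjusted p 0.0104 and 0.0146, edgeR's quasi-likelihood test), and the medians were -0.09 and -0.36. Over all genes 4.18% were called lower against WT and 3.17% against PIN. By that measure 1 of 8 is near the background. The 5 smooth muscle markers were all called lower in both comparisons with PCa, with medians of -7.06 and -7.49, the largest falls being those of the contractile genes Cnn1, Myh11 and Actg2, at -8.03, -7.82 and -7.06 from WT and -8.23, -8.13 and -7.49 from PIN, and with a summed level of 18.9 to 36.8 CPM in PCa, 1832 to 4439.5 CPM in WT and 2915 to 5366 CPM in PIN. No other mural marker was called. Cspg4, a proteoglycan of pericytes, was at 1.19 and 4.53 CPM in PCa and 6.51 to 11.98 CPM in PIN, with log2 fold changes of -1.84 ± 0.96 from WT and -1.57 ± 0.95 from PIN. Kcnj8, a potassium channel gene of pericytes, was at 1.16 and 1.71 CPM in PCa and 3.89 to 6.10 CPM in PIN, with log2 fold changes of -1.26 ± 0.64 and -1.76 ± 0.65. Both tumors lay below every PIN library for both genes, as for 23.2% of all genes, and overlapped WT through WT 2. Rgs5 was at 40.4 and 81.7 CPM in PCa and 2.36 to 35.1 CPM elsewhere, and Pdgfrb was at 6.44 and 7.68 CPM in PCa and 9.51 to 12.2 CPM in PIN, neither with a call. Abcc9 was at 411 CPM in PCa 2 and at 3.09 CPM in PCa 1.

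Fibroblast markers had no call, with Lum and Pdgfra as extremes at 0.39 and -1.24 against WT and 0.53 and -1.83 against PIN, and Lum was at 0.549 CPM in PCa 2 against 49.7 CPM in PCa 1. Leukocyte markers had no call either, with Ptprc at 1.49 and the T cell gene Cd3e at 0.0117 as extremes against WT and the macrophage gene Cd68 at 1.02 and Cd3e at -0.22 against PIN, and their summed level was 142 CPM in PCa 1 and 18.2 CPM in PCa 2. Red cell genes, a sign of blood in the tissue, summed to 34.1 and 13.9 CPM in PCa and to 13.9 to 36.2 CPM in the other libraries, and none was called, with extremes of Hba-a2 at 0.44 and Hba-a1 at -0.76 against WT and Hba-a1 at 0.49 and Hbb-b2 at -0.15 against PIN. Of 5 luminal markers 1, Pbsn, was called lower in each comparison with PCa, beside the same 4.18% and 3.17% of all genes. The summed level of the 5 was 2972 and 1561 CPM in PCa 1 and PCa 2, 8313 to 29297 CPM in WT and 9005 to 15317 CPM in PIN, most of it Pbsn in WT and PIN. From PIN to PCa the keratin genes Krt8 and Krt18 were at 1.06 ± 0.68 and 0.66 ± 0.56. Cdh1 was at 0.16 ± 0.59 and Epcam at -1.18 ± 0.58 there, all without a call. From WT to PCa these genes, in the same order, were at -0.23, -0.27, -0.28 and -0.98, also without a call. The part of these shifts in the values of the 10 genes was not tested.

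**Figure D4:**
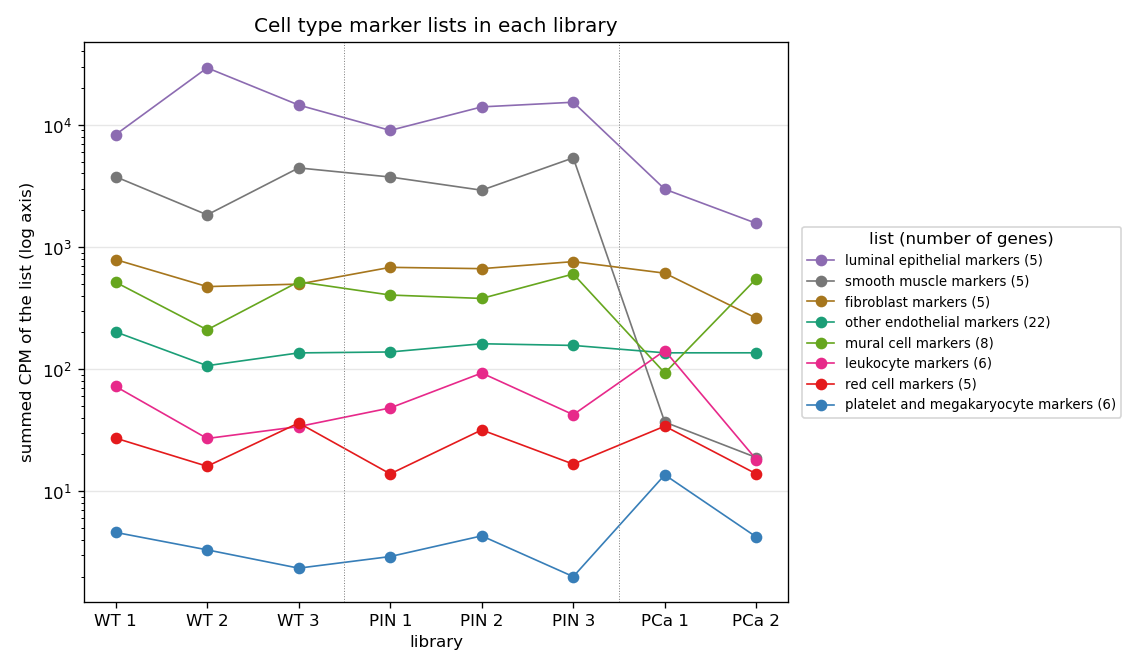
Summed CPM (vertical log axis) of 8 cell type marker lists in each library, with the thin lines only joining points of the same list. Other endothelial markers stay between 107 and 202 CPM, while smooth muscle markers fall from 1832 CPM or more in WT and PIN to 36.8 CPM or less in PCa.

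Ratios within a library do not depend on its scaling. They were taken as log2 ratios of TPM, counts per length scaled to a common total, and compared with two-sided exact permutation tests over 9 comparisons, whose smallest possible p is 0.1 for 3 against 3 libraries and 0.2 for 3 against 2, so that none could pass 0.05. The log2 ratio of Flt1 to Kdr lay between -0.94 and -0.31 in all 8 libraries, WT 2 included, and the exact p was 0.5 or above in each comparison. The log2 ratio of Angpt2 to Angpt1 was 1.75, 2.07 and 1.35 in WT and 1.95, 1.99 and 2.21 in PIN. In PCa 1 it was -0.60 and in PCa 2 it was 5.10, on either side of the 6 other libraries, so the PCa mean of 2.25 ± 4.03 (SD, n = 2) describes neither tumor.

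The log2 ratio of Vegfa to the geometric mean of Pecam1 and Cdh5 sets the ligand against endothelial RNA. It was 1.66, 4.75 and 2.73 in WT, 1.60, 2.02 and 2.19 in PIN and 2.51 and 2.90 in PCa. Both tumors lay above all 3 PIN libraries, with a difference of 0.77 and an exact two-sided permutation p of 0.2, the smallest possible, or 0.9 after Benjamini-Hochberg adjustment over the 9 comparisons. WT overlapped both groups, and PCa minus WT was -0.34 with WT 2 and 0.51 without it.

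**Figure D5:**
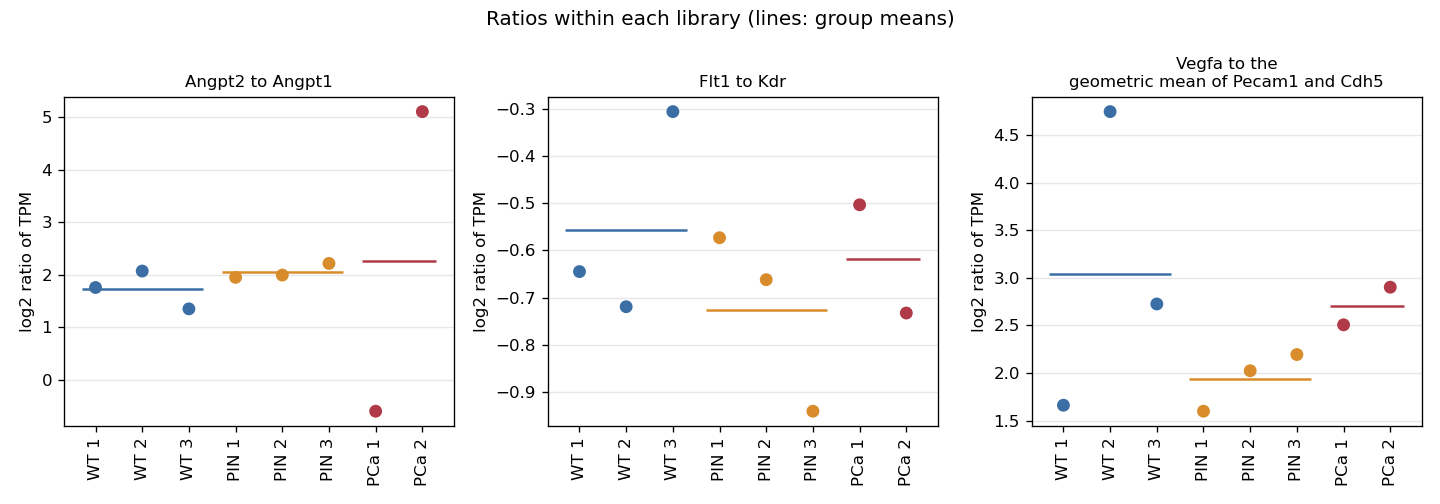
Log2 ratio of TPM (vertical axis) within each library for Angpt2 to Angpt1, Flt1 to Kdr and Vegfa to the geometric mean of Pecam1 and Cdh5, with points for libraries and lines for group means. The ratio of Angpt2 to Angpt1 is -0.60 in PCa 1 and 5.10 in PCa 2, and the ratio of Flt1 to Kdr stays between -0.94 and -0.31.

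Genes with profiles most like these were found as the smallest root-mean-square difference of centred log2 CPM over the 8 libraries, a description with no test. For the mean of Pecam1, Cdh5, Kdr, Flt1 and Tek they were Eltd1 (0.18), Arap3, Cyyr1, Ptprb and E130203B14Rik (0.24), where the median over all genes was 0.98. Eltd1 was at 1.31 CPM in WT 2 and between 6.22 and 10.9 CPM in the other libraries. For Vegfa the nearest were 1700056N10Rik (0.16), Gm10433, Fbl, Cox17 and Pcna (0.19), against a median of 0.74. Pcna, the sliding clamp of DNA replication, was at 42.5 and 56.0 CPM in PCa and between 18.0 and 34.6 CPM elsewhere. For Angpt2 they were Alox12 (0.21), Car2, Fam190a, Pllp and C130074G19Rik (0.34), against a median of 1.33. Alox12 was at 11.5 CPM in PCa 1 and at 96.3 to 194 CPM in the other libraries, and Car2 at 24.9 CPM in PCa 1 and 199 to 473 CPM in the others.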

How the data were processed

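Paired-end reads were obtained from 8 rRNA-depleted prostate libraries, 3 WT, 3 PIN and 2 PCa. The authors trimmed reads with cutadapt 1.9.1, aligned them to mm9 with HISAT2 2.1.0 and counted them per gene with HTSeq 0.6.1, and the deposited values are raw counts, which are used here. The table's summed exon lengths, deposited as another kind of value, served for values per kilobase and TPM. Groups come from the labels and genotypes from the study.

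A gene was tested if 2 or more libraries held over 1 CPM, in R 4.3.3 with edgeR 4.0.16 (TMM, quasi-likelihood F-test, 1 model of 3 groups, 5 residual degrees of freedom) and a call needed a log2 fold change beyond 1 in either direction and a Benjamini-Hochberg adjusted p under 0.05. Dividing the fold change by the root of F gave its standard error. Alternatives were upper-quartile normalization, DESeq2 1.42.0, limma-trend 3.58.1, 2 other filters, a fit of only 2 groups, a replicate block, no fold change limit and leaving out each library. Leaving out WT 2 for the other gene lists was added after its values were seen, and no other library was left out for them. The steps were run on simulated counts with less spread than these data, which checks the code and not its power here. Of the luminal markers, 1 gene is not reported here. The members and lists were chosen with earlier results of these data known. Named are all members and all VEGF and angiopoietin-Tie genes, and of other lists up to 3 called genes in each direction or, with none called, the extremes, for comparisons with PCa, and further genes named were chosen after their values were seen.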

Additional observations from a re-analysis of the deposited data

How the results depend on the processing

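Between PIN and WT, 0 members were called under every alternative run, while DESeq2 called 39 genes in all against 0 with edgeR. In PCa against WT the count of members called rose from 0 to 1 with upper-quartile normalization (Vegfa) and to 2 with DESeq2 (Vegfa and Angpt1), and over fits that left out 1 library it ranged from 0 to 2. In PCa against PIN it went from 1 to 2 with DESeq2 and to 0 with no low count filter, with filterByExpr, with only the 2 groups compared and with the replicate block, where the adjusted p of Vegfa was 0.0735, 0.0572, 0.0869 and 0.0634, and it ranged from 0 to 2 on leaving out 1 library. Over all genes the 1198 calls in PCa against WT became 2487 with DESeq2, 130 with only the 2 groups and 413 with the replicate block, and 347 to 2477 without 1 library. The 803 calls in PCa against PIN became 1984, 388 and 151 under the same 3 settings, and 78 to 2251 without 1 library. Fits of fewer libraries hold fewer degrees of freedom, and otherwise the cause was not tested. Fits without PCa 1 or PCa 2 set a single tumor against a spread from the other groups, so their counts rest on 1 PCa library. The labels do not say whether the replicate numbers pair libraries across groups. The correlation of deviations had a mean of 0.0992 over 7 same-numbered pairs, of which 3 were above 0.1. Over 14 other pairs the mean was -0.0505, and 2 were above 0.1. Deviations cancel within a group and the PCa libraries mirror each other, so these correlations are not independent. They cannot show whether the numbers pair the libraries, and the main fit did not pair them.

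Leaving out 1 library turned the sign of some fold changes of members. The ranges that cross 0 in PIN against WT were -0.26 to 0.0535 for Vegfa, -0.0118 to 1.23 for Vwf, -0.0249 to 1.04 for Cdh5, -0.22 to 0.0148 for Angpt2 and -0.58 to 0.34 for Hif1a. Those in PCa against WT were -0.79 to 0.65 for Tek, -3.80 to 0.31 for Angpt2 and -0.40 to 0.69 for Hif1a. In PCa against PIN they were -0.26 to 0.49 for Kdr, -0.0326 to 0.49 for Flt1, -0.0485 to 0.98 for Pecam1, -0.14 to 0.97 for Cdh5, -1.39 to 0.0464 for Tek, -3.71 to 0.40 for Angpt2 and -0.12 to 0.73 for Hif1a. Among the ratios, the difference of Angpt2 to Angpt1 ranged from -2.32 to 3.38 between PCa and WT and from -2.65 to 3.05 between PCa and PIN, where it also went from 0.20 to -0.0425 with 0.5 TPM added. That of Flt1 to Kdr ranged from -0.18 to 0.0641 between PCa and WT and from -0.00741 to 0.22 between PCa and PIN, and that of Vegfa to Pecam1 and Cdh5 from -1.03 to 0.51 in PCa against WT. PCa has 2 libraries, and the error of its comparisons comes from a spread pooled over all groups, so that the SE in PCa against PIN fell from 0.64 to 0.30 for Kdr and from 0.65 to 0.22 for Flt1 without WT 2. Angpt1 also rested on only 11 counts in PCa 2.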
